A study of Mus musculus with 21 samples.

Results

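Livers of DKO mice (Ezh1-/-Ezh2fl/flAlb-Cre) treated with CCl4 at 3 months of age were compared with livers of WT mice (Ezh2fl/fl without Cre) treated the same way, by mRNA-seq of whole tissue. Livers with CCl4 from E2KO mice (Ezh2fl/flAlb-Cre) and from E1KO mice (Ezh1-/-) served as further controls, and untreated DKO and WT livers at 8 months and 2 months were set beside them. Ezh1 was lost in every cell of E1KO and DKO animals, whereas Alb-Cre deletes the floxed Ezh2 gene in hepatocytes, so other liver cells of E2KO and DKO animals keep it. All groups share the mixed 129SV::FVB/N::C57BL/6 background, and WT animals carry the floxed Ezh2 gene too. The labels give neither dose nor timing of CCl4, and age differs between the treated and untreated groups. The deposited table has 1 FPKM value per gene and group (fragments scaled by gene length and library size), although the sample titles name 3 replicates for each CCl4 group. Of 22520 genes in the table, 10981 reached 1 FPKM in DKO liver, WT liver or both, and these are the genes compared.

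PRC2, a Polycomb complex, places the repressive mark H3K27me3 on chromatin, and either Ezh1 or Ezh2 serves as its methyltransferase. The mark holds developmental regulators and cell cycle inhibitor genes silent in differentiated cells. CCl4, carbon tetrachloride, is a liver toxin that P450 enzymes, above all Cyp2e1 of the pericentral hepatocytes, turn into a reactive radical. The hepatocytes around the central vein die, surviving hepatocytes enter the cell cycle, macrophages enter, and stellate cells turn into contractile myofibroblasts that lay down collagen. The pericentral zone is also the place of glutamine synthesis, while urea formation is strongest in periportal hepatocytes.

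With CCl4, DKO liver had less mRNA of genes for mitosis and DNA replication than WT liver, and more mRNA of pericentral genes, of several P450 genes, of female-biased and fetal liver genes and of developmental transcription factors. Only 15 of 26 female-biased, 10 of 17 fetal and 5 of 31 developmental genes compared reached 1 FPKM in WT. The others entered through the DKO column, which fixes their direction. On the log2(FPKM+1) scale 377 genes were higher in DKO by at least 1 (3.43% of those compared) and 289 were lower by at least 1 (2.63%), together 666 (6.07%), and the median difference over all 10981 genes was -0.036. Differences of at least 2 were seen for 107 genes that were higher and 53 that were lower. A pseudocount of 1 makes these differences smaller than the fold change for genes of low value. The entry limit of 1 FPKM bears on the counts, because 162 of the 377 higher genes were under 1 FPKM in WT and 63 of the 289 lower genes were under 1 FPKM in DKO. With 1 FPKM asked of both columns, 215 genes were higher and 226 lower.

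**Figure D1:**
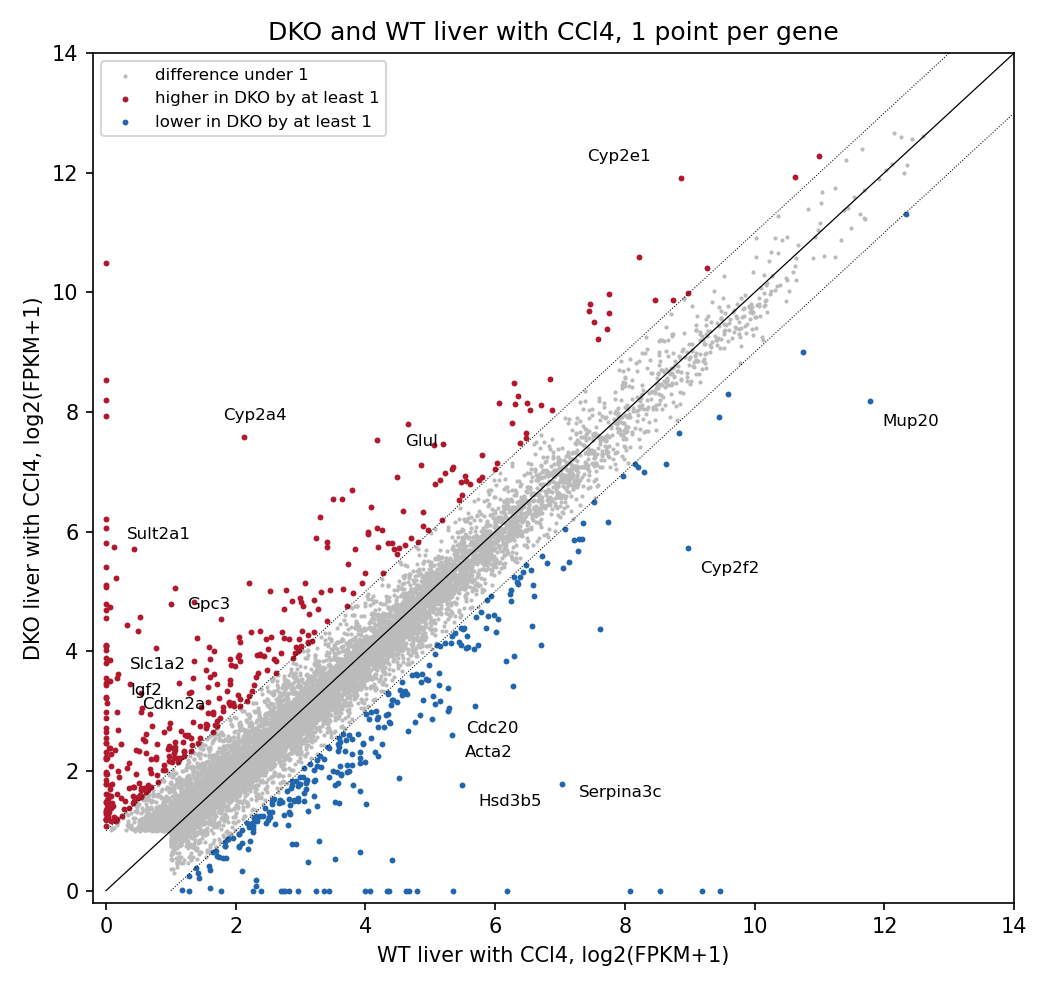
Level of each of the 10981 genes in DKO liver (vertical axis) and WT liver (horizontal axis) with CCl4, as log2(FPKM+1), 1 point per gene, with dotted lines at a difference of 1 in either direction. The 377 genes in red lie above the upper line and the 289 in blue below the lower one, and points on the axes are listed at 0 in WT or DKO.

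The single losses gave fewer differences under the same rule. E2KO liver with CCl4 had 52 genes higher than in WT (0.491% of 10588) and 73 lower (0.689%). E1KO liver with CCl4 had 149 genes higher (1.38% of 10833) and 101 lower (0.932%). These comparisons share the WT column with that of DKO, so their values are set side by side here and no overlap is drawn between them. DKO stood at least 1 above all 3 other genotypes for 235 genes (2.14% of those compared) and at least 1 below all 3 for 80 (0.729%). When the same rule was put to each genotype in turn over 11223 genes of at least 1 FPKM in any of the 4 CCl4 columns, E2KO stood apart for 19 genes upward and 15 downward. E1KO stood apart for 52 upward and 28 downward, and WT for 23 upward and 15 downward.

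A difference between 2 columns has no replicate check. A test could be had only by fitting all 12 columns with limma, with DKO set against the other 3 genotypes within a condition and the spread taken from the WT, E1KO and E2KO columns of each condition. That spread holds the effects of the single losses as well as noise, and it is not a spread between animals. Of 11835 genes tested, 282 rose in DKO with CCl4 (2.38%) and 184 fell (1.55%) at a Benjamini-Hochberg adjusted p under 0.05, together 466 (3.94%), while 2022 had an unadjusted p under 0.05. The limma counts were 171 and 100 without the CCl4 WT column, 176 and 85 without CCl4 E2KO, and 203 and 103 without the 8-month column labelled E1KO. Of the genes past the difference of 1 from WT, 171 also rose and 102 also fell. "Rose" and "fell" are kept below for genes past this test, and "higher" and "lower" describe values.

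Ezh1 was 0.27 FPKM in DKO, 1.96 in E2KO, 0.20 in E1KO and 2.05 in WT with CCl4, so both groups with the null allele were low. Ezh2 was 2.51 FPKM in DKO, 3.92 in E2KO, 4.68 in E1KO and 5.68 in WT, in tissue that also holds cells without Cre. The 8-month library labelled E1KO is an exception among the untreated groups in having 0.88 FPKM of Ezh1, against 2.04 in WT at that age, and the limma counts without it are given with the other alternatives. The 4 CCl4 columns summed to 531761 to 583963 FPKM, with 12.2% to 14.7% in the 10 most abundant genes. Read counts and depth are unknown. The hepatocyte markers Apob, Hnf4a, Serpinc1, F2, Cps1 and Cyp2e1 were all present in each CCl4 column, with Hnf4a at 106.6 FPKM in DKO and 92.3 in WT, while Alb was not analysed here. In the CCl4 columns the summed defining markers of skeletal muscle were at most 0.07 FPKM and of pancreas at most 0.59 FPKM. Over a list of 14 skeletal muscle genes the 8-month column labelled E1KO stood apart at 468.2 FPKM, against 1.31 to 2.11 FPKM in the 11 other columns, and that column enters the limma fits. Because the samples are whole tissue, fewer cells of a type and less RNA per cell cannot be told apart in any result below.

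Genes of mitosis were the largest group that was lower in DKO. Of 48 measured, 41 were lower than in WT by at least 1 and none was higher by that much, and DKO had the lowest value of the 4 genotypes for 47 of them, against 38.8% of all genes compared. The median difference was -1.51 in DKO, -0.51 in E2KO and -0.62 in E1KO, each from WT. Of 45 tested with limma, 30 fell and none rose. For 14 of the 48, DKO was at least 1 below all 3 other genotypes. The exception was Pttg1, the securin gene, at 44.5 FPKM in DKO, 41.3 in E2KO, 36.8 in E1KO and 39.6 in WT.

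The promoters of the 3 mitotic genes with the largest differences are shown because they carry the short elements known from this class of genes, the CCAAT box bound by NF-Y and the TTTGAA cell cycle homology element. The windows run from 250 bases before to 50 bases after the start, from RefSeq on build GRCm38.p6, on the coding strand, with capitals at CCAAT or TTTGAA on either strand (ATTGG or TTCAAA when read from the other strand), neighbouring matches running together. Ube2c lies at chr2:164769679-164769978 on the plus strand, Cdca3 at chr6:124829926-124830225 on the plus strand and Cdc20 at chr4:118437294-118437593 on the minus strand.
Ube2c: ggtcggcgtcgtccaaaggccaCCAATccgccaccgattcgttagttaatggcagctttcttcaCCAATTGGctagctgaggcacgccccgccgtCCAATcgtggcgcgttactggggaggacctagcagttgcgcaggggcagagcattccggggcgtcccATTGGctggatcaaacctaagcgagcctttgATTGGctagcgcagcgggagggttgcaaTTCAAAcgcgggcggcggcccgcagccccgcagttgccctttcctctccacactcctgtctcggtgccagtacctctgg
Cdca3: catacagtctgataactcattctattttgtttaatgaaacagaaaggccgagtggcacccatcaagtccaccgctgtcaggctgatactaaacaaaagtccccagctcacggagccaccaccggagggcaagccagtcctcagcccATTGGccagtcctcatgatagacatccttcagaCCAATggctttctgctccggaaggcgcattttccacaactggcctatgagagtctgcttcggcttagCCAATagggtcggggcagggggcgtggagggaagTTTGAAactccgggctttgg
Cdc20: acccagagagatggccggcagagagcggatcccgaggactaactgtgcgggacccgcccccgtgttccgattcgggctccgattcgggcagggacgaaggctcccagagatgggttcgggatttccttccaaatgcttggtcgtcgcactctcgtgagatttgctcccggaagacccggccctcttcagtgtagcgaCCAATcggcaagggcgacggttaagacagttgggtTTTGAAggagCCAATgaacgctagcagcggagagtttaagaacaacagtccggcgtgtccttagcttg
Ube2c holds 6 CCAAT matches in its window and Cdc20 holds 2, and each of the 3 genes holds 1 TTTGAA. That element begins 29 bases before the start in Ube2c, 18 before it in Cdc20 and 30 after it in Cdca3. Of the 40 mitotic genes with a window in RefSeq, 72.5% had CCAAT, against 39.2% of all 16993 promoters matched to the table. TTTGAA was in 72.5% of the mitotic windows and in 15.8% of all. These shares describe letters in the windows and not binding.

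Ube2c, the ubiquitin-conjugating enzyme of the anaphase-promoting complex, was 14.2 FPKM in DKO, 47.7 in E2KO, 40.4 in E1KO and 77.2 in WT, a difference from WT of -2.36. Its limma adjusted p was 0.0949, and the 3 other genotypes also differed among themselves. Cdca3, a regulator of mitotic entry, was 13.3 FPKM in DKO, 30.6 in E2KO, 39.8 in E1KO and 70.8 in WT (limma adjusted p = 0.0636). For both genes WT was the highest group and DKO the lowest, with the single knockouts between them. Cdc20, which activates the anaphase-promoting complex, fell to 7.29 FPKM in DKO, against 21.2 in E2KO, 20.1 in E1KO and 38.2 in WT. Its limma difference was -1.67 with a standard error of 0.31 (adjusted p = 0.0259). Plk1, the polo-like kinase of spindle assembly, fell to 3.42 FPKM in DKO, against 8.87 in E2KO, 9.53 in E1KO and 14.97 in WT (limma adjusted p = 0.0188). Prc1, which bundles the microtubules of the spindle midzone, fell to 4.49 FPKM, against 11.4 in E2KO, 11.3 in E1KO and 18.1 in WT (limma adjusted p = 0.0174). In these genes E2KO and E1KO were close to each other and DKO lay apart below them.

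Birc5, the survivin gene of the chromosomal passenger complex, was 20.4 FPKM in DKO, 54.3 in E2KO, 49.5 in E1KO and 93.6 in WT (limma adjusted p = 0.0764). Pbk, a mitotic kinase, fell to 6.30 FPKM in DKO, against 22.3 in E2KO, 13.03 in E1KO and 31.4 in WT (limma adjusted p = 0.0491, and 0.0519 to 0.118 without CCl4 WT, CCl4 E2KO or the 8-month column labelled E1KO). Mki67, the source of the Ki-67 proliferation antigen, was 2.71 FPKM in DKO, 5.6 in E2KO, 5.62 in E1KO and 9.83 in WT (limma adjusted p = 0.059). Mki67 thus showed the same order without passing the test. The genes were not silent in DKO liver: Cdc20 was 7.29 FPKM with CCl4 in DKO, against 1.16 in untreated DKO at 8 months and 0.56 at 2 months. In the untreated livers the direction differed, with medians of 0.30 at 8 months and 0.074 at 2 months for DKO minus WT over the same list, where most of the genes were below 1 FPKM in each group.

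**Figure D2:**
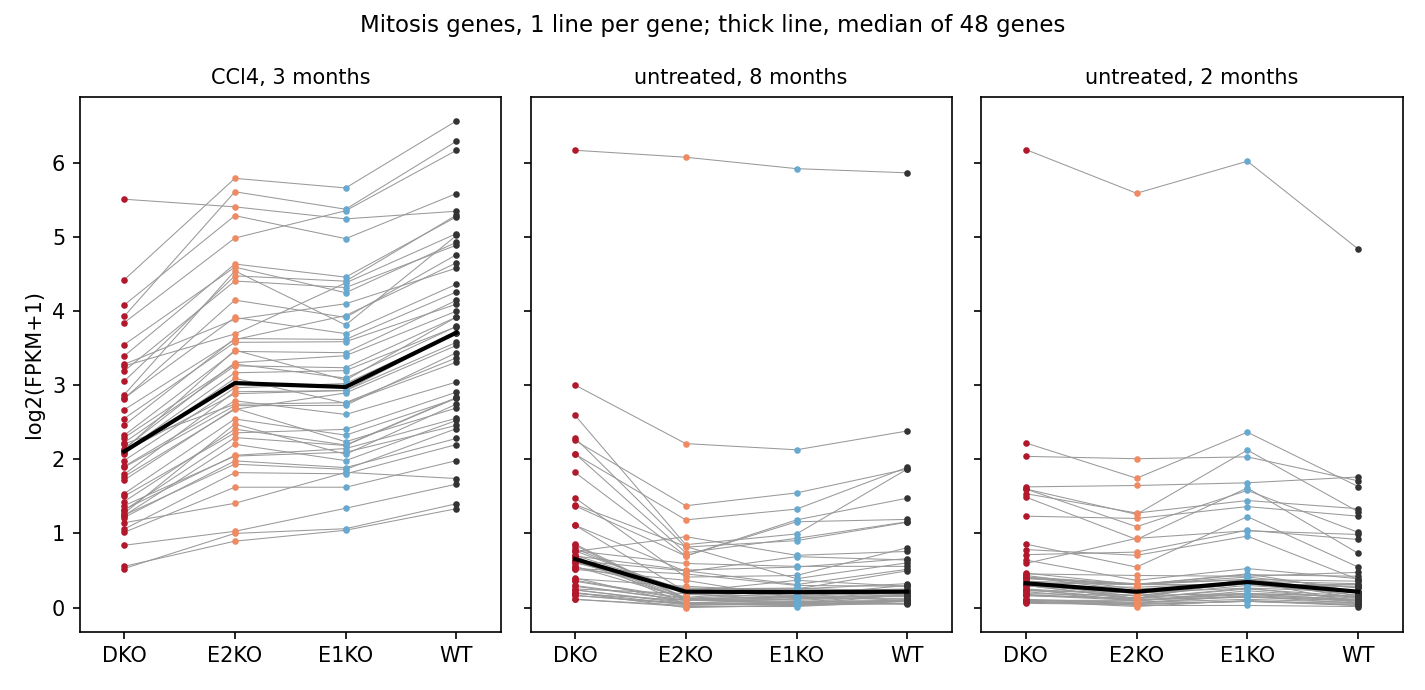
Levels of the 48 mitosis genes as log2(FPKM+1) in DKO, E2KO, E1KO and WT liver (left to right) with CCl4, untreated at 8 months and untreated at 2 months, 1 thin line per gene and a thick line for the median. With CCl4 the median is lowest in DKO and highest in WT, with both single knockouts between them, and the line that stays high throughout is Pttg1.

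Replication and S phase genes were lower to a smaller extent. Of 37 measured, 11 were lower in DKO than in WT by at least 1 and none was higher by that much, with a median of -0.88, against 0.13 in E2KO and -0.33 in E1KO. DKO had the lowest value of the 4 genotypes for all 37, although none lay a full 1 below the 3 others. With limma 12 of 37 fell and none rose. Ccne2, a cyclin that drives entry into S phase, fell to 1.19 FPKM in DKO, against 3.69 in E2KO, 2.93 in E1KO and 3.51 in WT (limma difference -0.99, standard error 0.11, adjusted p = 0.0022). Pcna, the replication clamp, fell to 73.2 FPKM in DKO, against 159.9 in E2KO, 113.8 in E1KO and 146.5 in WT (limma adjusted p = 0.0381). Rrm1, the large subunit of ribonucleotide reductase, fell to 11.1 FPKM, against 23.9 in E2KO, 18.5 in E1KO and 26.8 in WT (limma adjusted p = 0.0247). In each of these genes the DKO value lay below the range of the other 3.

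Rrm2, the small subunit of ribonucleotide reductase, was 29.2 FPKM in DKO, 70.3 in E2KO, 34.7 in E1KO and 95.6 in WT, and its limma adjusted p was 0.291. E1KO was thus nearly as low as DKO for this gene. Tyms, thymidylate synthase, was 5.65 FPKM in DKO, 12.6 in E2KO, 9 in E1KO and 17.3 in WT (limma adjusted p = 0.112). The 31 replication genes with a promoter window had CCAAT in 64.5%, TTTGAA in 16.1% and GCGGGAA, a form of the E2F site, in 41.9%, the last against 6.2% of all promoters. The mitotic and replication genes thus shared CCAAT and differed in the other 2 elements. In the larger sets of all higher and all lower genes, only 64.7% and 65.1% had a window, so no motif share is given for them: the check is void below 80%.

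Cell cycle inhibitor genes of the Ink4 and Kip families were split. Of 6 measured, 3 were higher in DKO by at least 1 and rose in the limma test. Only 4 of the 6 reached 1 FPKM in WT, with a median difference of -0.46. Cdkn2a and Cdkn2b were compared through their DKO level alone, which fixes their direction. Cdkn2a, which gives p16Ink4a and p19Arf and is a classic Polycomb target, was 9.97 FPKM in DKO, 0.15 in E2KO, 0.35 in E1KO and 0.29 in WT (limma difference 3.12, standard error 0.11, adjusted p = 6.69e-07). Cdkn1c, the imprinted p57Kip2 gene, was 5.33 FPKM in DKO, 1.13 in E2KO, 0.97 in E1KO and 1.24 in WT (limma adjusted p = 0.00535). Cdkn2b, which gives p15Ink4b, was 2.34 FPKM in DKO, 0.19 in E2KO, 0.55 in E1KO and 0.62 in WT (limma adjusted p = 0.00736). The 3 others did not pass: Cdkn1a, the p53-induced p21 gene, was 36.6 FPKM in DKO, 47.4 in E2KO, 35.7 in E1KO and 54.2 in WT (limma adjusted p = 0.781). Among growth-related genes Ccnd2, a G1 cyclin, rose to 7.36 FPKM in DKO, against 1.68 in E2KO, 2.51 in E1KO and 1.77 in WT (limma adjusted p = 0.00148). Junb, an immediate early factor, rose to 25.0 FPKM, against 8.95 in E2KO, 11.3 in E1KO and 8.65 in WT (limma adjusted p = 0.00774).

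Pericentral genes were higher in DKO liver with CCl4, and for the leading ones the DKO level was nearer to that of untreated liver. Of 19 measured, 7 were higher than in WT by at least 1 and 1 was lower, and DKO was the highest of the 4 genotypes for 15, against 31.3% of all genes compared. The median difference was 0.79 in DKO, -0.017 in E2KO and -0.42 in E1KO. Of the 19, 15 reached 1 FPKM in WT, and these had a median of 0.89 in DKO. The others, such as Slc1a2, entered through the DKO column, which fixes their direction. With 1 FPKM asked of both columns, 6 were higher. Of 21 tested with limma, 9 rose and none fell. Cyp2e1, the P450 that activates CCl4, rose to 3857 FPKM in DKO, against 386.1 in E2KO, 151.1 in E1KO and 463.7 in WT, a difference from WT of 3.05. Its limma difference was 3.68 with a standard error of 0.52 (adjusted p = 0.0081). In untreated liver Cyp2e1 was 3778 FPKM in DKO and 5965 in WT at 8 months, and 4759 FPKM in DKO and 5359 in WT at 2 months. The low Cyp2e1 columns were therefore those of E2KO, E1KO and WT with CCl4.

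Glul, glutamine synthetase of the last layer of hepatocytes around the central vein, rose to 137.9 FPKM in DKO, against 36.8 in E2KO, 22.6 in E1KO and 28.1 in WT (limma adjusted p = 0.00285). Untreated Glul was 286.6 FPKM in DKO and 289.4 in WT at 8 months, and 301.9 in DKO and 274.9 in WT at 2 months. Slc1a2, a glutamate transporter of the same cells, rose to 10.8 FPKM in DKO, against 0.15 in E2KO, 0.27 in E1KO and 0.13 in WT (limma adjusted p = 2.67e-04). Its untreated levels were 36.4 FPKM in DKO and 27.8 in WT at 8 months, and 27.7 in DKO and 26.6 in WT at 2 months. For both genes the untreated groups were close together and the CCl4 groups were split, with DKO between the untreated level and the 3 other genotypes. Oat, ornithine aminotransferase, rose to 173.5 FPKM in DKO, against 14.9 in E2KO, 37.4 in E1KO and 32.4 in WT (limma adjusted p = 0.0206, and 0.0562 when the fit held additive terms for E1KO and E2KO). Rhbg, an ammonium transporter, rose to 10.1 FPKM in DKO, against 1.18 in E2KO, 0.56 in E1KO and 1.17 in WT (limma adjusted p = 0.00475).

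Not all genes of the zone did this. Cyp1a2, a P450 with pericentral expression, was 488.8 FPKM in DKO, 324.2 in E2KO, 308.3 in E1KO and 403.3 in WT (limma adjusted p = 0.279). Axin2, a target of the Wnt signal that sets the zone, was 1.07 FPKM in DKO, 0.68 in E2KO, 0.31 in E1KO and 0.82 in WT (limma adjusted p = 0.49). The exception in the other direction was Aldh1a1, a retinal dehydrogenase, at 314.8 FPKM in DKO, 708.2 in E2KO, 367.4 in E1KO and 766.7 in WT (limma adjusted p = 0.453). E1KO shared the low level of DKO for that gene.

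**Figure D3:**
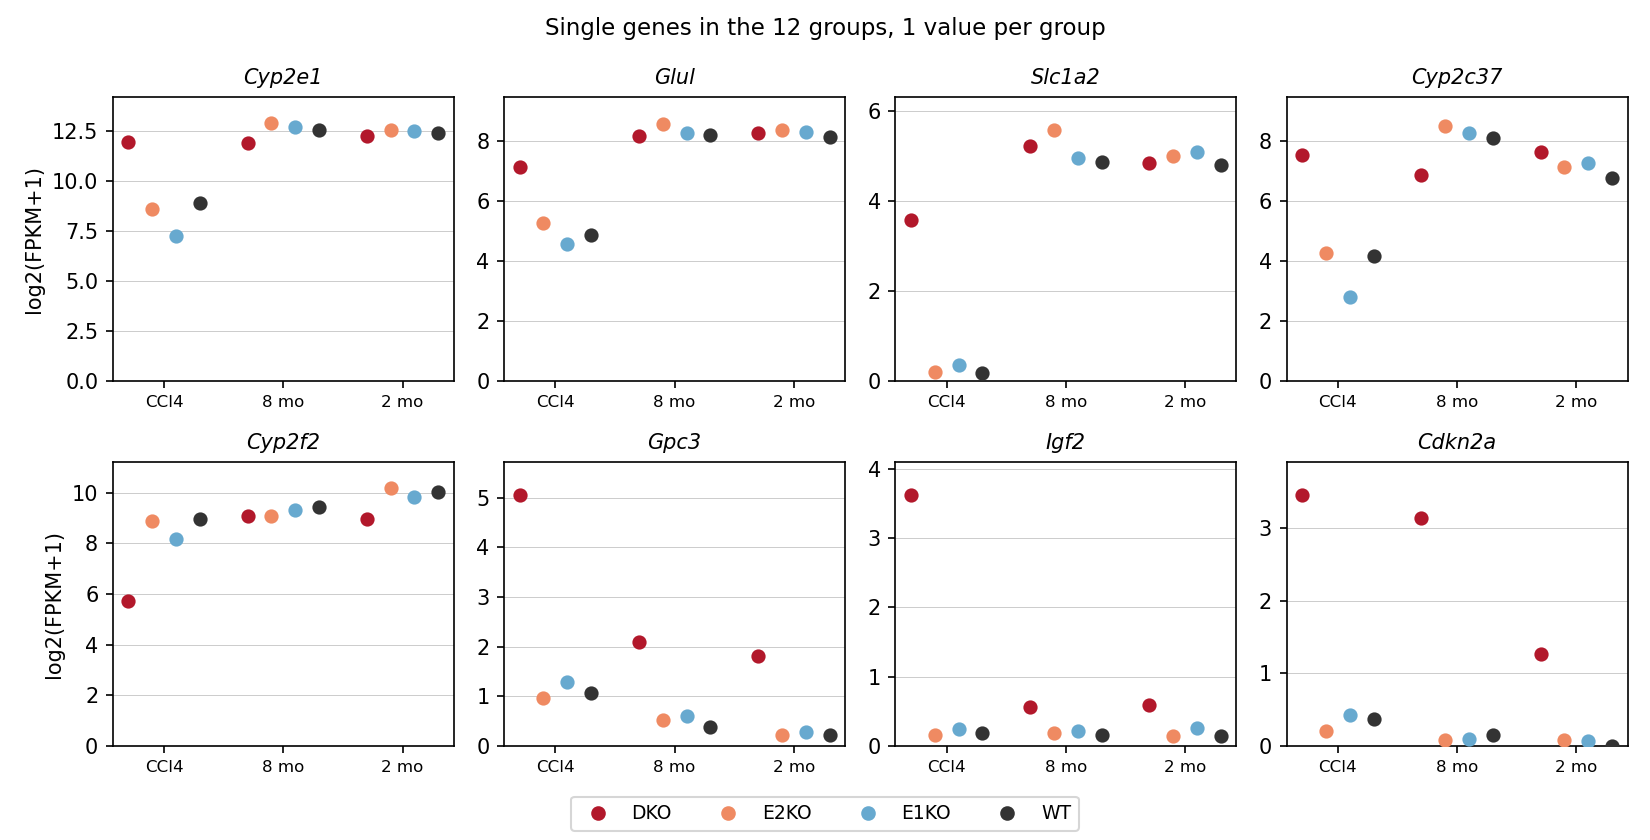
Levels of 8 genes as log2(FPKM+1) in the 12 groups, with DKO, E2KO, E1KO and WT from left to right within CCl4, 8 months and 2 months, 1 value per group and no error bar. Cyp2e1, Glul, Slc1a2 and Cyp2c37 are lower with CCl4 in the 3 other genotypes than in DKO. For Glul and Slc1a2, DKO with CCl4 lies below untreated DKO. Cyp2f2 is lowest in DKO with CCl4, Gpc3 and Igf2 stand high in DKO with CCl4, and Cdkn2a in DKO in each condition.

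Of 42 P450 genes and partners of xenobiotic metabolism, which overlap the zone list, 19 were higher in DKO by at least 1 and 3 were lower, with a median of 0.82. Of the 42, 36 reached 1 FPKM in WT, with a median of 0.52. The others entered through the DKO column, which fixes their direction. With 1 FPKM asked of both columns, 15 were higher. DKO was the highest of the 4 genotypes for 28 and the lowest for 11. With limma 9 of 43 rose and 1 fell. In the Cyp2c family 8 of 13 measured genes were higher and none lower by at least 1. Only 10 of the 13 reached 1 FPKM in WT, with a median of 1.14. Members of the family are similar, and it is not known how reads shared between them were counted. Cyp2c37 rose to 184.7 FPKM in DKO, against 17.9 in E2KO, 5.91 in E1KO and 17.0 in WT (limma difference 3.80, standard error 0.51, adjusted p = 0.00632). Cyp2c55 rose to 119.6 FPKM in DKO, against 10.2 in E2KO, 17.7 in E1KO and 21.4 in WT (limma adjusted p = 0.0128). Cyp2c29 was 1352 FPKM in DKO, 846.7 in E2KO, 202.7 in E1KO and 616.8 in WT and did not pass (limma adjusted p = 0.305). Cyp2b10, a target of the receptor CAR, was 134.3 FPKM in DKO, 80.1 in E2KO, 93.1 in E1KO and 39.5 in WT (limma adjusted p = 0.436). Its values in the single knockouts lay between those of DKO and WT.

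The P450 gene that fell was Cyp2f2, a marker of periportal hepatocytes, at 51.7 FPKM in DKO, 471.5 in E2KO, 288.1 in E1KO and 501.6 in WT (limma difference -2.96, standard error 0.31, adjusted p = 0.00164). In untreated liver it was 546.1 FPKM in DKO and 686.1 in WT at 8 months, and 505.0 in DKO and 1062 in WT at 2 months. Cdh1, E-cadherin, which is stronger in periportal hepatocytes, fell to 9.22 FPKM in DKO, against 19.9 in E2KO, 22.8 in E1KO and 22.2 in WT (limma adjusted p = 0.03, and 0.0501 to 0.0789 without any 1 of CCl4 E2KO, CCl4 E1KO, CCl4 WT or the 8-month column labelled E1KO). These genes did not stand for their zone as a whole. Of 23 periportal and urea cycle genes measured, 4 were higher and 2 lower by at least 1, with a median of -0.041. Arg1, arginase, was 608.7 FPKM in DKO, 1013 in E2KO, 967.2 in E1KO and 1103 in WT (limma adjusted p = 0.2). Pck1, the gluconeogenic carboxykinase, was 801.2 FPKM in DKO, 340.1 in E2KO, 597.3 in E1KO and 216.0 in WT (limma adjusted p = 0.299). Otc, a urea cycle enzyme, rose to 178.2 FPKM in DKO, against 93.0 in E2KO, 69.8 in E1KO and 82.2 in WT (limma adjusted p = 0.0379).

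Of genes that were lower with CCl4 than in untreated liver in both single knockouts, more were higher in DKO than lower, and the reverse held for genes that were higher with CCl4. Genes were sorted by the E2KO and E1KO columns alone, which are not in the DKO minus WT difference, a grouping chosen after the values were seen. Of 417 genes that were at least 1 lower with CCl4 than in the mean of both untreated ages, 68 were higher in DKO than in WT by at least 1 (16.3%) and 19 lower (4.56%), with a median of 0.31. Of 862 genes that were at least 1 higher with CCl4 in both, 45 were higher in DKO (5.22%) and 151 lower (17.5%), with a median of -0.27. Of the 9702 other genes, 264 were higher (2.72%) and 119 lower (1.23%). In the untreated livers the DKO minus WT medians for the first class were -0.13 at 8 months and 0.058 at 2 months, and for the second 0.31 and 0.071. The entry limit bears on these shares too. Genes under 1 FPKM in WT entered through the DKO column, and genes under 1 FPKM in DKO through the WT column, which fixes their direction. How many of each class did so was not counted, so the shares are descriptions. Treatment and age cannot be told apart in this sorting.

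Female-biased liver genes, whose level follows the pattern of growth hormone release, were high in DKO. Of 26 measured, 17 were higher than in WT by at least 1 and none lower, with a median of 1.65, against -0.013 in E2KO and -0.027 in E1KO. DKO was highest of the 4 genotypes for 24, and for 16 it lay at least 1 above all 3 others. Of the 26, 15 reached 1 FPKM in WT, and the others entered through the DKO column, which fixes their direction. With limma 13 of 28 rose and none fell. In untreated liver 19 of the 26 were higher in DKO than in WT by at least 1 at 2 months, with a median of 1.93. At 8 months 7 were higher, with a median of 0.38, and none was lower at either age. Cyp2a4, a steroid hydroxylase, was 191 FPKM in DKO, 0.84 in E2KO, 2.08 in E1KO and 3.36 in WT (limma difference 6.04, standard error 1.23, adjusted p = 0.0369). Without CCl4 E2KO, CCl4 E1KO, CCl4 WT or the 8-month column labelled E1KO its limma adjusted p was 0.0571 to 0.0913, and it was 0.0557 with a pseudocount of 0.5. Cyp2b9 was 51.2 FPKM in DKO, 0.22 in E2KO, 0.56 in E1KO and 0.35 in WT (limma adjusted p = 9.03e-06). Cyp3a44 was 27.2 FPKM in DKO, 1.67 in E2KO, 1.27 in E1KO and 1.56 in WT (limma adjusted p = 1.34e-06). In each of these P450 genes DKO stood far above the 3 other genotypes, which were close to each other for Cyp2b9 and Cyp3a44 and spread more widely for Cyp2a4.

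The hydroxysteroid sulfotransferase genes of the Sult2a family summed to 100.7 FPKM in DKO, 0.49 in E2KO, 0.39 in E1KO and 0.76 in WT. The 6 compared were all under 1 FPKM in WT, so each was compared through its DKO level, which fixes the direction, and their number supports nothing further. Sult2a1 was 52.7 FPKM in DKO, 0.06 in E2KO, 0.07 in E1KO and 0.09 in WT (limma adjusted p = 1.88e-08). Sult2a2 was 25.7 FPKM in DKO, 0.01 in E1KO and 0.04 in WT and was listed at 0 in E2KO (limma adjusted p = 1.62e-08). For genes this close to 0 outside DKO the columns that give the spread hardly vary, so the size of such a p is not read further. Sult2a1 was high in untreated DKO as well, at 50.9 FPKM in DKO and 0.19 in WT at 8 months, and 12.8 in DKO and 0.03 in WT at 2 months. Hao2, a hydroxyacid oxidase, was 13.5 FPKM in DKO, 0.06 in E2KO, 0.04 in E1KO and 0.04 in WT (limma adjusted p = 9.71e-07). The Sult2a genes, and Cyp2a4 with Cyp2a5, are nearly identical in sequence, so which member was higher is uncertain. Cyp2a5 itself was 225.3 FPKM in DKO, 31.2 in E2KO, 2.42 in E1KO and 75.7 in WT (limma adjusted p = 0.225).

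Male-biased genes were mostly lower. Of 25 measured, 12 were lower in DKO by at least 1 and 2 higher, with a median of -0.99, against 0.25 in E2KO and -0.26 in E1KO. With limma 7 of 27 fell and none rose. Untreated DKO liver had the same shift from WT. At 8 months 12 of the 25 were lower and 2 higher by at least 1, with a median of -0.96. At 2 months 12 were lower and 1 higher, with a median of -0.94. Mup20, which gives the male pheromone darcin, fell to 290.2 FPKM in DKO, against 6251 in E2KO, 5242 in E1KO and 3518 in WT (limma difference -4.06, standard error 0.53, adjusted p = 0.00536). Mup21, another major urinary protein gene, fell to 19.7 FPKM in DKO, against 258.6 in E2KO, 252.3 in E1KO and 194.1 in WT (limma adjusted p = 0.00644). Hsd3b5, a hydroxysteroid dehydrogenase, fell to 2.38 FPKM in DKO, against 55.2 in E2KO, 18.3 in E1KO and 44.0 in WT (limma adjusted p = 0.0129). Elovl3, a fatty acid elongase, fell to 1.99 FPKM, against 10.4 in E2KO, 14.3 in E1KO and 8.24 in WT (limma adjusted p = 0.0244). In all 4 genes the DKO value lay far below the other 3, which did not share a common order. The sex of the animals is not given in the labels, but Xist, the RNA that coats the silenced X chromosome, was 0.01 FPKM in each of the 4 CCl4 columns. The Y-linked gene Ddx3y was 11.4 FPKM in DKO, 10.9 in E2KO, 9.4 in E1KO and 11.1 in WT, so the columns did not differ in this respect.

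Developmental transcription factors that PRC2 silences in many tissues had low but measurable levels in DKO liver and hardly any in the others. Of 91 listed, 31 reached 1 FPKM in DKO or WT, only 5 of them in WT, so for most members the entry rule fixes the direction. Of the 31, 22 were higher by at least 1, none was lower, and the median was 1.31. Hoxa10, a factor of posterior body segments, was 7.75 FPKM in DKO, 0.01 in WT and listed at 0 in E2KO and E1KO. Untreated DKO liver had 2.60 FPKM of Hoxa10 at 8 months and 1.61 at 2 months, against 0.01 in WT at each age. Of 40 Hox genes in the table, 10 were measured and 9 were higher by at least 1. None of the 10 reached 1 FPKM in WT, so the entry rule fixes their direction and their number supports nothing further. The other genes with large differences were posterior Hox genes and Sim2: Hoxd9 was 3.64 FPKM in DKO, Hoxa11 3.67, Hoxc10 3.57 and Sim2 2.84, each at 0.01 FPKM or less in the 3 other genotypes. These are low levels next to the metabolic genes above.

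Some factors of this class had a measurable level in WT. Hand2, a mesenchymal factor that also marks stellate cells, rose to 6.36 FPKM in DKO, against 2.88 in E2KO, 3.09 in E1KO and 2.37 in WT (limma adjusted p = 0.0206, and 0.0502 without CCl4 E2KO). Lhx2, a homeobox factor known in mouse to hold stellate cells quiescent, rose to 4.03 FPKM in DKO, against 1.37 in E2KO, 1.43 in E1KO and 1.30 in WT (limma adjusted p = 0.00238). Sox9, a factor of bile duct cells, was 2.62 FPKM in both DKO and WT, with 2.44 in E2KO and 2.14 in E1KO.

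Fetal liver and oncofetal genes were higher in DKO for 9 of 17 measured and lower for 2, with a median of 1.07. Of the 17, 10 reached 1 FPKM in WT, and these had a median of 0.29. In untreated liver 9 of the 17 were higher in DKO than in WT by at least 1 at 8 months, with a median of 1.10. At 2 months 7 were higher, with a median of 0.47, and none was lower at either age. With limma 6 of 14 rose and none fell. Gpc3, a cell surface glypican known from fetal liver and liver cancer, rose to 32.3 FPKM in DKO, against 0.95 in E2KO, 1.43 in E1KO and 1.09 in WT (limma difference 3.95, standard error 0.14, adjusted p = 7.37e-07). Igf2, a fetal growth factor, was 11.3 FPKM in DKO, 0.11 in E2KO, 0.18 in E1KO and 0.14 in WT (limma adjusted p = 1.2e-07). In untreated DKO liver Igf2 was 0.48 FPKM at 8 months and 0.51 at 2 months, against 0.12 and 0.10 in WT. The high Igf2 value was thus found in DKO with CCl4 and in neither untreated DKO group. H19, the non-coding RNA of the same imprinted locus, was 6.96 FPKM in DKO, 0.16 in E2KO, 0.08 in E1KO and 0.13 in WT, with a limma adjusted p of 0.29. Igf2bp3, an RNA-binding protein of fetal tissue, was 5.45 FPKM in DKO, 0.12 in E2KO, 0.13 in E1KO and 0.14 in WT (limma adjusted p = 6.95e-06). Scd2, a desaturase of fetal liver, rose to 34.2 FPKM in DKO, against 2.38 in E2KO, 4.79 in E1KO and 3.61 in WT (limma adjusted p = 3.7e-04).

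Other genes on that list did not follow. Afp, alpha-fetoprotein, was 21.1 FPKM in DKO, 12.2 in E2KO, 21.4 in E1KO and 31.3 in WT (limma adjusted p = 0.97). Ly6d was 50.3 FPKM in DKO, 51.4 in E2KO, 78.3 in E1KO and 153.2 in WT, with WT set apart rather than DKO (limma adjusted p = 0.644). Akr1c18, a hydroxysteroid dehydrogenase, was 8.60 FPKM in DKO, 10.5 in E2KO, 19.2 in E1KO and 22.7 in WT (limma adjusted p = 0.233).

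Collagen and matrix genes differed little between DKO and WT, while 3 genes of the stellate cell list were lower. Of 34 fibrillar collagen and matrix genes measured, none was higher or lower by at least 1, and the median was 0.23 in DKO, 0.034 in E2KO and 0.25 in E1KO. With limma 2 of 36 rose and 1 fell. Col1a1, the main collagen of scars, was 17.5 FPKM in DKO, 16.1 in E2KO, 23.4 in E1KO and 15.6 in WT (limma adjusted p = 0.98). Col3a1, its partner in young scars, was 47.7 FPKM in DKO, 32.7 in E2KO, 38.3 in E1KO and 29.1 in WT (limma adjusted p = 0.642). Dcn, the proteoglycan decorin, rose to 176.2 FPKM in DKO, against 111.3 in E2KO, 94.1 in E1KO and 96.0 in WT (limma adjusted p = 0.0326, and 0.0501 to 0.0889 without CCl4 WT, CCl4 E1KO or the 8-month column labelled E1KO). In untreated liver the DKO minus WT median of this list was 0.78 at 8 months and 0.52 at 2 months. Of 22 collagen processing and matrix turnover genes none was past a difference of 1 with CCl4, and the same held for 20 genes of TGF-beta and PDGF signalling, of which 2 rose with limma.

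Of 20 stellate cell and myofibroblast markers, 3 were lower in DKO by at least 1 and 1, Hand2, was higher. The 3 lower ones encode contractile proteins, were singled out because they were lower, and do not stand for the list. Acta2, the smooth muscle actin of activated stellate cells, fell to 6.98 FPKM in DKO, against 31.4 in E2KO, 64.5 in E1KO and 37.6 in WT (limma difference -2.44, standard error 0.54, adjusted p = 0.0471). Without CCl4 E2KO, CCl4 E1KO or CCl4 WT its limma adjusted p was 0.0654 to 0.0969, and median scaling, other filters on low values or a pseudocount of 0.5 gave 0.0512 to 0.0633. Tagln, the actin-binding transgelin, was 19.1 FPKM in DKO, 56.3 in E2KO, 106.9 in E1KO and 63.5 in WT (limma adjusted p = 0.0534). Myl9, a myosin light chain, was 7.58 FPKM in DKO, 21.6 in E2KO, 33.8 in E1KO and 20.0 in WT (limma adjusted p = 0.0768). All 3 had DKO lowest and E1KO highest. Lrat, which stores retinoid in quiescent stellate cells, rose to 5.53 FPKM in DKO, against 2.68 in E2KO, 2.20 in E1KO and 2.27 in WT (limma adjusted p = 0.0346). Pdgfrb, a receptor of stellate cells, was 2.59 FPKM in DKO, 3.26 in E2KO, 5.11 in E1KO and 2.81 in WT (limma adjusted p = 0.504). The stellate list as a whole had a median of 0.14, with 4 of 21 risen and 1 fallen in the limma test.

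**Figure D4:**
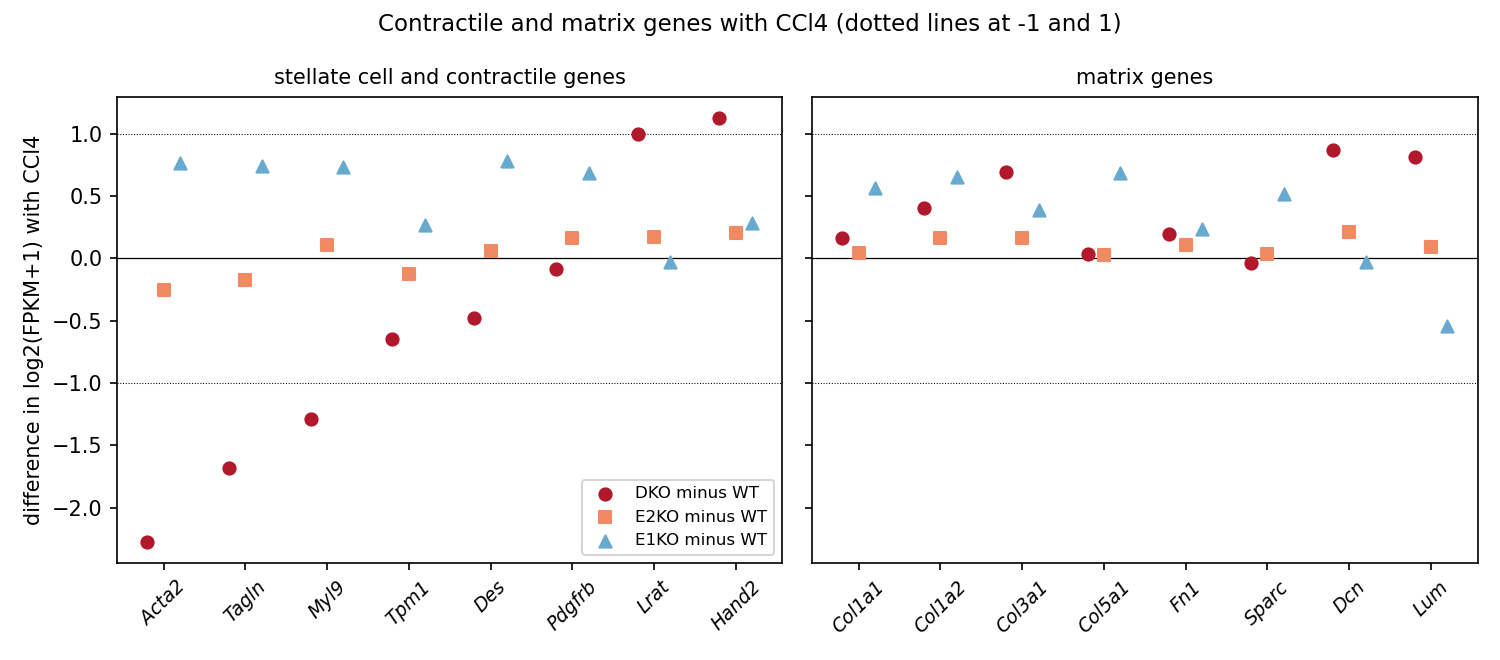
Differences from WT in log2(FPKM+1) with CCl4 for 8 stellate cell genes (left) and 8 matrix genes (right), for DKO, E2KO and E1KO from left to right at each gene, 1 value each with no error bar. Acta2, Tagln and Myl9 are below -1 in DKO and above 0 in E1KO, and no matrix gene shown passes the dotted lines at -1 and 1.

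Markers of other cell types moved in part with genotype. Of 31 Kupffer cell and macrophage genes, 6 were higher in DKO by at least 1 and none lower, with a median of 0.64, against 0.22 in E2KO and 1.00 in E1KO. DKO was the highest genotype for 4 of them, and 15 were higher by at least 1 in E1KO. The defining macrophage markers summed to 121.3 FPKM in DKO, 103.6 in E2KO, 155.6 in E1KO and 88.6 in WT. Lyz2, the myeloid lysozyme, was 200.8 FPKM in DKO, 131.8 in E2KO, 233.9 in E1KO and 87.7 in WT (limma adjusted p = 0.66). E1KO was thus as high as DKO for the common macrophage genes. Gpnmb, a glycoprotein of macrophages that have taken up lipid or debris, was the exception and rose to 17.7 FPKM in DKO, against 2.61 in E2KO, 3.90 in E1KO and 1.65 in WT (limma adjusted p = 0.00285).

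The neutrophil genes S100a8, S100a9 and Retnlg were all higher in DKO by at least 1, and the defining neutrophil markers summed to 51.3 FPKM in DKO, 19.5 in E2KO, 33.0 in E1KO and 12.96 in WT. Mpo, the granule enzyme among those markers, was at most 0.07 FPKM in any of the 4 columns. Over S100a8, S100a9 and Retnlg the DKO minus WT median was 1.72 with CCl4, 2.25 untreated at 8 months and 0.12 at 2 months. S100a9 was 25.1 FPKM in DKO, 8.79 in E2KO, 16.3 in E1KO and 5.73 in WT (limma adjusted p = 0.215). Cxcl1, a neutrophil chemokine that hepatocytes also make, rose to 52.9 FPKM in DKO, against 11.4 in E2KO, 10.3 in E1KO and 9.64 in WT (limma adjusted p = 0.00662). Of 22 MHC and antigen presentation genes, 10 were higher by at least 1 and 1 lower, with a median of 0.90, and 2 rose with limma. Cd74, the class II invariant chain, was 125.1 FPKM in DKO, 67.8 in E2KO, 65.4 in E1KO and 36.3 in WT (limma adjusted p = 0.238). H2-Aa, a class II alpha chain, was 80.0 FPKM in DKO, 44.5 in E2KO, 42.6 in E1KO and 22.9 in WT (limma adjusted p = 0.318). Both genes were highest in DKO and lowest in WT without passing the test. Lymphocyte markers summed to 3.02 FPKM in DKO, 2.41 in E2KO, 1.60 in E1KO and 0.81 in WT. The part of these cells in the MHC and neutrophil values was not tested. None of 20 sinusoidal endothelial genes differed by 1.

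Of 13 cholangiocyte and progenitor genes, 5 were higher in DKO by at least 1 and none lower, with a median of 0.72. In untreated liver 7 of the 13 were higher in DKO than in WT at 8 months, with a median of 1.02. At 2 months 2 were higher, with a median of 0.22. Only 8 of the 13 reached 1 FPKM in WT, with a median difference of -0.19, while Cldn7, Anxa13 and Prom1 were compared through their DKO level alone, which fixes their direction. Cldn7, a tight junction claudin of ducts, rose to 6.92 FPKM in DKO, against 0.37 in E2KO, 0.51 in E1KO and 0.45 in WT (limma adjusted p = 1.48e-05). Anxa13, an epithelial annexin, rose to 5.95 FPKM in DKO, against 0.72 in E2KO, 1.00 in E1KO and 0.99 in WT (limma adjusted p = 4.39e-04). Prom1, a surface protein of progenitor cells, rose to 2.47 FPKM in DKO, against 0.38 in E2KO, 0.73 in E1KO and 0.42 in WT (limma adjusted p = 0.00242). The defining duct markers Krt7, Krt19, Epcam and Spp1 summed to 688.3 FPKM in DKO, 316.0 in E2KO, 648.6 in E1KO and 402.8 in WT. The sum was thus high in E1KO as well. Krt19 and Epcam made up little of it in any genotype, so it rested on Krt7 and Spp1 and is not read as a measure of duct cells. Krt19 and Epcam were not higher in DKO than in WT by at least 1. Krt19, a duct keratin, was 1.86 FPKM in DKO, 2.93 in E2KO, 2.42 in E1KO and 2.77 in WT, and Epcam was 0.87, 0.87, 0.75 and 0.79 FPKM in the same order of genotypes.

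Most general hepatocyte genes differed little. Of 25 secreted protein genes, 1 was lower in DKO by at least 1 and none higher. It was F11, a clotting factor gene, which fell to 16.2 FPKM in DKO, against 48.6 in E2KO, 48.5 in E1KO and 52.1 in WT (limma difference -1.56, standard error 0.14, adjusted p = 5.99e-04). None of 27 genes of fatty acid oxidation and ketogenesis was past a difference of 1. Scd1, the main liver desaturase, rose to 592.1 FPKM in DKO, against 119.4 in E2KO, 148.7 in E1KO and 190.2 in WT (limma adjusted p = 0.0287, and 0.0686 without CCl4 E2KO and 0.0705 with additive genotype terms), among 3 of 31 lipogenic and cholesterol genes that were higher by at least 1. Apoc2, the cofactor of lipoprotein lipase, rose to 4983 FPKM in DKO, against 1630 in E2KO, 1469 in E1KO and 2027 in WT (limma adjusted p = 0.0177, and 0.0514 with additive genotype terms). Lpl itself was 55.5 FPKM in DKO, 11.3 in E2KO, 25.5 in E1KO and 9.59 in WT (limma adjusted p = 0.16).

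Of 31 NRF2 and glutathione genes, 5 were lower than in WT by at least 1 and none higher in DKO, while 5 were lower in E2KO, and 3 lower and 1 higher in E1KO. Gstp1, an abundant glutathione transferase that is also male-biased in mouse liver, fell to 513.3 FPKM in DKO, against 1434 in E2KO, 1454 in E1KO and 1708 in WT (limma adjusted p = 0.00242), and reads shared with its near copy Gstp2 leave the member uncertain. Of 28 acute phase genes 6 were higher and 1 lower in DKO by at least 1, while 5 were higher in E2KO and 6 in E1KO. Socs3, a feedback inhibitor of interleukin signalling, rose to 16.8 FPKM in DKO, against 2.92 in E2KO, 2.80 in E1KO and 3.18 in WT (limma adjusted p = 0.00535). Chac1, a glutathione-degrading enzyme of the unfolded protein response, rose to 4.66 FPKM in DKO, against 0.83 in E2KO, 0.68 in E1KO and 0.52 in WT (limma adjusted p = 0.00133). It was the only gene of 24 on that list past a difference of 1, and the chaperone gene Hspa5 was 619.3 FPKM in DKO, 576.2 in E2KO, 557.5 in E1KO and 579.6 in WT. Of 23 p53 targets 1 was higher and none lower by at least 1. Serpina3c, a serine protease inhibitor gene, fell to 2.43 FPKM in DKO, against 211.8 in E2KO, 364.7 in E1KO and 129.7 in WT (limma difference -5.98, standard error 0.84, adjusted p = 0.0081). That was the largest difference from WT downward among genes that are not short RNAs and lie beyond all 3 other genotypes, at -5.25.

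**Figure D5:**
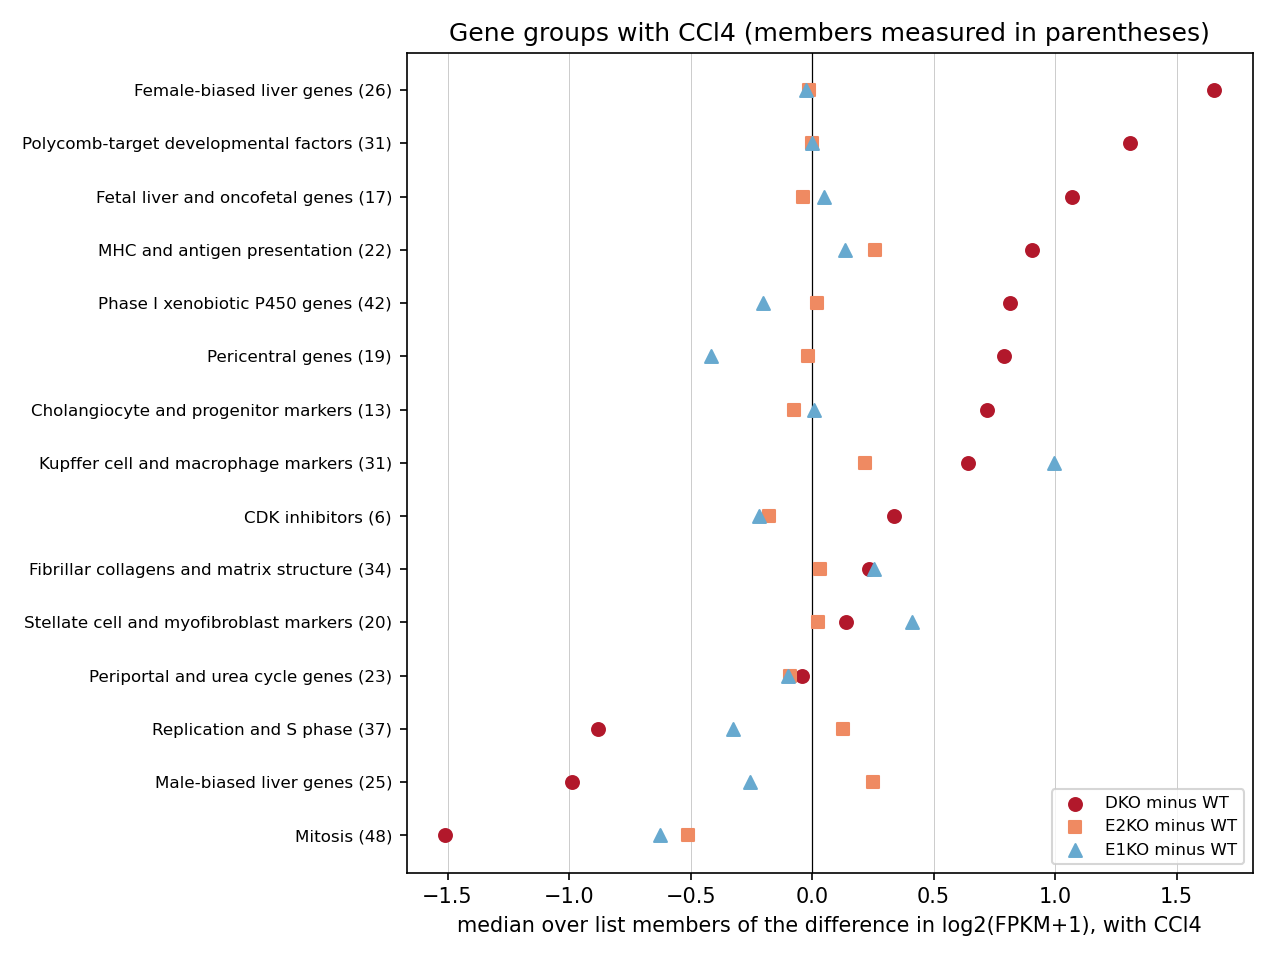
Median over the measured members of 15 gene lists of the difference from WT in log2(FPKM+1) with CCl4, for DKO (circles), E2KO (squares) and E1KO (triangles), with no error bar since each group has 1 column. Mitosis (-1.51), male-biased and replication genes lie left of 0 in DKO and female-biased genes (1.65) farthest right, while for macrophage genes E1KO lies beyond DKO. The medians include genes that reached 1 FPKM only in DKO, which fixes their direction. Over members that reached 1 FPKM in WT, the DKO median was 1.19 for female-biased, 0.89 for developmental and 0.89 for pericentral genes. For fetal, P450, cholangiocyte and cell cycle inhibitor genes it was 0.29, 0.52, -0.19 and -0.46.

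The DKO difference with CCl4 was also set against that in untreated liver. Under the same rule 358 genes were higher in DKO than in WT (3.39%) and 141 lower (1.33%) at 8 months, together 499 (4.72%). At 2 months 243 were higher (2.33%) and 176 lower (1.69%), together 419 (4.02%). Of the 377 genes that were higher with CCl4, 104 were also higher at 8 months, which is 27.6% of the CCl4 list and 29.1% of the 8-month list. At 2 months 97 were shared, which is 25.7% of the CCl4 list and 39.9% of the 2-month list. Of the 289 lower genes, 37 were shared with 8 months (12.8% and 26.2% of each list) and 39 with 2 months (13.5% and 22.2%). In all 3 conditions 52 genes were higher and 20 lower. These comparisons have no column in common, although ages differ.

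The limma test of the difference between CCl4 and the mean of both untreated ages found 138 genes (1.17%), of which 77 differed upward with CCl4 (0.651%) and 61 downward (0.515%), with 1714 at an unadjusted p under 0.05. That limma count was 88 without the 8-month column labelled E1KO and 274 without CCl4 E1KO. Among pericentral genes 3 passed, Cyp2e1 (4.21, standard error 0.63, adjusted p = 0.0222, and 0.0538 without the 8-month column labelled E1KO), Slc1a2 (3.32, standard error 0.32, adjusted p = 0.00201) and Glul (2.31, standard error 0.31, adjusted p = 0.0159). Among mitosis genes 8 passed, all downward, such as Cdc20 (-2.17, standard error 0.38, adjusted p = 0.0377, and 0.0538 to 0.0748 without CCl4 E2KO or the 8-month column labelled E1KO), and 3 replication genes passed downward, such as Ccne2 (-0.94, standard error 0.13, adjusted p = 0.0175, and 0.0549 with additive genotype terms). Gpc3 passed upward at 2.37 (standard error 0.17, adjusted p = 2.74e-04). By contrast Cyp2a4 (0.80, adjusted p = 0.872) and Mup21 (-0.21, adjusted p = 0.913) did not pass in this limma test and differed from the other genotypes in untreated DKO too, with Mup21 at 85.6 FPKM in DKO and 1094 in WT at 8 months.

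The genes with the largest differences included many short RNA genes, whose FPKM values are unreliable because the gene model is shorter than a usual library fragment. There were 131 such genes among those compared, of which 43 were higher and 42 lower by at least 1, and they made up 8 of the 15 largest higher and 6 of the 15 largest lower differences beyond all 3 other genotypes. Snord49a, for example, was 293.8 FPKM in DKO with CCl4 and listed at 0 in the 3 other genotypes. In the limma test 14 genes were at 0 in all 9 columns outside DKO and so had no spread there, and 11 of the limma calls with CCl4 were short RNA genes. Their p-values are not interpreted. Besides these, the list of large differences held Ptgds, the prostaglandin D2 synthase gene, at 20.8 FPKM in DKO, 0.24 in E2KO, 0.11 in E1KO and 0.25 in WT (limma adjusted p = 3.7e-04). Rgs16, a brake on G protein signalling, was 22.9 FPKM in DKO, 1.42 in E2KO, 0.43 in E1KO and 0.44 in WT (limma adjusted p = 0.155), and its untreated values ran from 5.73 FPKM in WT at 2 months to 157.1 in the 8-month column labelled E1KO. Cyp21a1, the steroid 21-hydroxylase gene, fell to 0.42 FPKM in DKO, against 7.17 in E2KO, 23.5 in E1KO and 20.3 in WT (limma adjusted p = 0.0249, and 0.0632 without CCl4 WT).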

How the data were processed

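The authors deposited 1 table of FPKM values for 22520 genes and 12 columns, 1 per genotype and condition. Per the labels, libraries were made from total RNA with a TruSeq RNA kit. The submitters' processing notes name CASAVA, TopHat, Cufflinks, BWA, SICER and HOMER and build mm9; their versions, their roles and how replicates were combined are not stated, so depth and the spread between animals are unknown. The 9 ChIP-seq samples are not analysed here.

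Values were compared as log2(FPKM+1) on the deposited scale, called at a difference of at least 1 among genes of at least 1 FPKM in either column. limma 3.58.1 (R 4.3.3; lmFit, eBayes with trend) was fitted to 11835 genes of mean FPKM at least 0.5 with a mean for DKO and for non-DKO in each of the 3 conditions (6 residual degrees of freedom), two-sided, Benjamini-Hochberg threshold 0.05. The fit was run on simulated data with independent noise of the same spread in DKO and the other columns. That run cannot show how a different spread in DKO, or effects of the single losses, bear on the p-values. The genes compared and the 39 lists were chosen with earlier results of these data known, so counts over lists are descriptions. Genes were named by rule: Ezh1 and Ezh2, the 15 largest differences each way beyond all 3 other genotypes, the 5 lowest limma p-values each way, up to 5 members past the rule per list, or up to 3 of highest WT level where fewer than 3 were past it, and cell type markers; Lhx2, Plk1, Prc1, Mki67, Pttg1, Pcna, Rrm1, Cyp1a2, Axin2, Aldh1a1, Cyp2c55, Cyp2c29, Cyp2b10, Cyp2a5, Arg1, Otc, Elovl3, Sox9, Afp, Ly6d, Akr1c18, Col3a1, Xist and Ddx3y were chosen after their values were seen. Promoter windows came from RefSeq (GRCm38.p6), matched by symbol or synonym. Alternatives covered the pseudocount, the filter, scaling, the columns used and the model.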

Additional observations from a re-analysis of the deposited data

Results flagged for a closer look

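The DKO difference with CCl4 departed from that in untreated liver for 138 genes in the limma test of the difference itself, and the named genes among them are given here, each as that difference on the log2 scale (CCl4 minus untreated). Pericentral and P450 genes differed upward: Cyp2c37 by 4.23, Cyp2e1 by 4.21, Slc1a2 by 3.32, Cyp2b9 by 2.68, Glul by 2.31 and Cyp3a44 by 2.26. Fetal genes, a prostaglandin enzyme and developmental genes did so as well, with Igf2 at 3.03, Ptgds at 3.0, Gpc3 at 2.37, Hoxa10 at 1.52, Hoxc10 at 1.01, Cdkn2a at 1.0 and Igf2bp3 at 0.98. Of the sulfotransferase and oxidase genes, Sult2a2 was at 1.62, Hao2 at 1.15 and Sult2a1 at 0.99. Genes of inflammation and stress were Cxcl1 at 2.35, Socs3 at 2.2, Gpnmb at 2.19, Chac1 at 1.7 and Junb at 1.46. Downward were Serpina3c at -5.94, Cyp2f2 at -2.35, Cdc20 at -2.17, Cdh1 at -1.98 and Ccne2 at -0.94. Of these, Cyp2e1, Serpina3c, Cyp2f2, Cdc20, Junb, Gpnmb and Cxcl1 had a limma adjusted p of 0.0532 to 0.0748 without the 8-month column labelled E1KO, and without CCl4 E2KO Socs3 and the same genes other than Cyp2e1 had 0.0538 to 0.0781. Without CCl4 WT Cxcl1 had 0.0522. Additive genotype terms gave 0.0549 to 0.0646 for Cyp2e1, Cyp2c37, Cyp2f2, Cdc20, Ccne2, Junb, Gpnmb, Cxcl1, Igf2bp3 and Hao2. A pseudocount of 0.5 gave 0.0809 for Cdkn2a, 0.0605 for Sult2a1, 0.0617 for Igf2bp3 and 0.0558 for Gpnmb.

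Short RNA genes that are at 0 in all columns outside DKO were also found, and with no spread there their values are listed only. Upward were Mir449b at 3.9, Mir3075 at 3.46, Mir196b at 3.44, Mir181c at 3.23, Mirlet7c-1 at 2.88 and Mir191 at 1.8. Downward were Mir145 at -4.9, Mir3474 at -2.76, Mir883b at -2.53, Mir1929 at -1.87 and Mir297-1 at -1.68.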

How the results depend on the processing

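No paired analysis was possible because each group has 1 column. The counts that moved by more than 1.5 times were as follows. With a pseudocount of 0.1, 607 genes were higher in DKO instead of 377, 355 lay above and 148 below all 3 other genotypes instead of 235 and 80, and 17 replication genes were lower instead of 11. With 1 FPKM asked of both columns, 215 genes were higher and 114 lay above all 3, and the higher counts were 8 for female-biased genes, 2 for developmental factors and 4 for fetal genes. With a mean of at least 1 FPKM over the 12 columns, 3 developmental factors were higher. Against the mean of WT, E1KO and E2KO, 166 genes and 5 replication genes were lower instead of 289 and 11. In limma, no filter on low values gave 1342 higher and 303 lower genes and 1287 for the difference from untreated liver. A mean of at least 1 FPKM gave 81 for that difference. Additive genotype terms gave 104 lower genes and 70 for the difference, and the 2-month groups alone gave 51. Leaving out in turn 1 of 4 columns (CCl4 WT, E1KO or E2KO, or the 8-month column labelled E1KO), the limma counts ranged from 171 to 325 higher, from 85 to 276 lower and from 88 to 274 for the difference. The lowest higher count came without the CCl4 WT column (171 higher, 100 lower) and the lowest lower count without CCl4 E2KO (176 higher, 85 lower). Without the 8-month column labelled E1KO 203 were higher and 103 lower, with 88 for the difference, and without CCl4 E1KO 325, 276 and 274. Of the 466 limma calls with CCl4, 242 to 395 remained when 1 of these columns was left out. The counts for mitosis (41 lower), pericentral genes (7 higher), P450 genes, MHC genes and male-biased genes stayed within 1.5 times under each setting tried. Median scaling removed an offset of -0.056 from DKO minus WT and gave 406 higher and 263 lower genes. It raised differences by up to about that size, and by less where a value was near 0. Leaving out short RNA genes was chosen after seeing the data. Additive genotype terms also ended the limma calls with CCl4 of Pbk (0.0711), Dcn (0.07) and Cdh1 (0.0523). Genes named after their values were seen were not refitted. No named gene past the rule changed its direction. The cause of these moves was not tested, and depth is unknown, so no counting error can be given for low genes.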

Other observations

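Erythroid genes were lower in DKO with CCl4 for 4 of 6 measured and higher for none. Alas2, the first enzyme of heme synthesis in red cell precursors, was 15.7 FPKM in DKO, 45 in E2KO, 33.7 in E1KO and 46.0 in WT, with a limma adjusted p of 0.513. Of 18 circadian clock genes 2 were higher by at least 1. Dbp, a clock output factor, was 23.7 FPKM in DKO, 7.67 in E2KO, 15.1 in E1KO and 7.76 in WT (limma adjusted p = 0.217), and the labels give no hour of sampling. Mt1, a metallothionein, was 1533 FPKM in DKO, 221.8 in E2KO, 369.3 in E1KO and 296.4 in WT, and did not pass (limma adjusted p = 0.5), with untreated values of 834.2 in DKO and 15.1 in WT at 8 months and 281.3 in DKO and 1825 in WT at 2 months. Cyp7a1, the first enzyme of bile acid synthesis, was 38.5 FPKM in DKO, 11.8 in E2KO, 3.38 in E1KO and 14.9 in WT (limma adjusted p = 0.136). The pancreatic lipase-related gene Pnliprp1 was 1.39 FPKM in DKO, 0.03 in E2KO, 0.01 in E1KO and 0.02 in WT (limma adjusted p = 9.96e-05), while Cela2a, a defining acinar gene, was 0.27 FPKM in DKO and 0.33 in WT.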
